A study of Homo sapiens with 2 samples.

Results

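A set of 10 receptor tyrosine kinase genes named in studies of glioma was followed here through cultures of astrocyte progenitors: EGFR, ERBB2, ERBB4, PDGFRA, PDGFRB, ALK, NTRK2, NTRK3, MET and IGF1R. They were chosen by symbol, as 10 of the 36601 genes in the count matrices, and all 10 were found in both libraries. The cells descend from the human embryonic stem cell line H7 and were cultured with the agents LIF, BMP4 and FGF1. The day 160 cells gave 1 library and the day 220 cells another. Each library pooled 3 differentiations that no label separates, so neither day had a replicate, no test between days was possible, and all intervals are 95% intervals of counting error only. The cell line and the 3 agents are the same for both libraries, and no untreated culture was analysed here. The title and time label of the later library give day 220, whereas its protocol text repeats the earlier day, and the file names of the libraries differ in a prefix that the labels leave unexplained. Day and any other difference between the libraries therefore cannot be told apart.

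Receptor tyrosine kinases are membrane proteins that bind a growth factor outside the cell, pair with a partner receptor and phosphorylate tyrosines on their own tails, where adaptor proteins dock and pass the signal to the RAS-ERK and PI3K-AKT pathways. In the developing brain EGFR marks dividing progenitors, PDGFRA marks early glial and oligodendrocyte precursors, ERBB4 is typical of interneurons and NTRK2 is the receptor of brain-derived neurotrophic factor. In glioma EGFR, PDGFRA and MET are known for amplification, and ALK, NTRK2, NTRK3 and MET for gene fusions.

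After filtering, 9425 cells of day 160 and 521 cells of day 220 were kept, with median depths of 10058 and 46433 UMIs (unique molecular identifiers, each standing for 1 captured RNA molecule). Of 11 astrocyte marker genes, 9 reached 10 CPM (UMIs of a gene per 1000000 UMIs of the library) at day 160 and 8 at day 220. GFAP stood at 550 and 135 CPM and the water channel gene AQP4 at 5.06 and 2.09 CPM, and CLU, FGFR3 and ALDH1L1 were also lower at day 220. The others were higher there: S100B at 171 and 567 CPM, APOE at 25.2 and 194 CPM, SPARCL1, GJA1, SLC1A3 and SLC1A2. Endothelial markers summed to 0.224 and 0.581 CPM. Of 5 microglia markers 3 were at 0 at day 160 and 4 at day 220. The kept sets shared 2 barcode sequences.

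In CPM, PDGFRA was the highest of the 10 genes in both libraries, and ALK had the largest difference between them. ALK went from 2.20 CPM (1.93 to 2.48) on 255 UMIs at day 160 to 251 CPM (245 to 257) on 6483 UMIs at day 220, a level 114-fold higher (100.8 to 130). ERBB4 was 45.9-fold higher (41.1 to 51.5), IGF1R 5.23-fold (5.002 to 5.47) and NTRK3 2.70-fold (2.49 to 2.92). In the other direction, NTRK2 was 8.83-fold lower (6.76 to 11.8). EGFR was 1.76-fold higher (1.62 to 1.92), PDGFRA 1.14-fold lower (1.11 to 1.17), and the interval of ERBB2 included no difference (1.09-fold, 0.974 to 1.22).

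**Figure D1:**
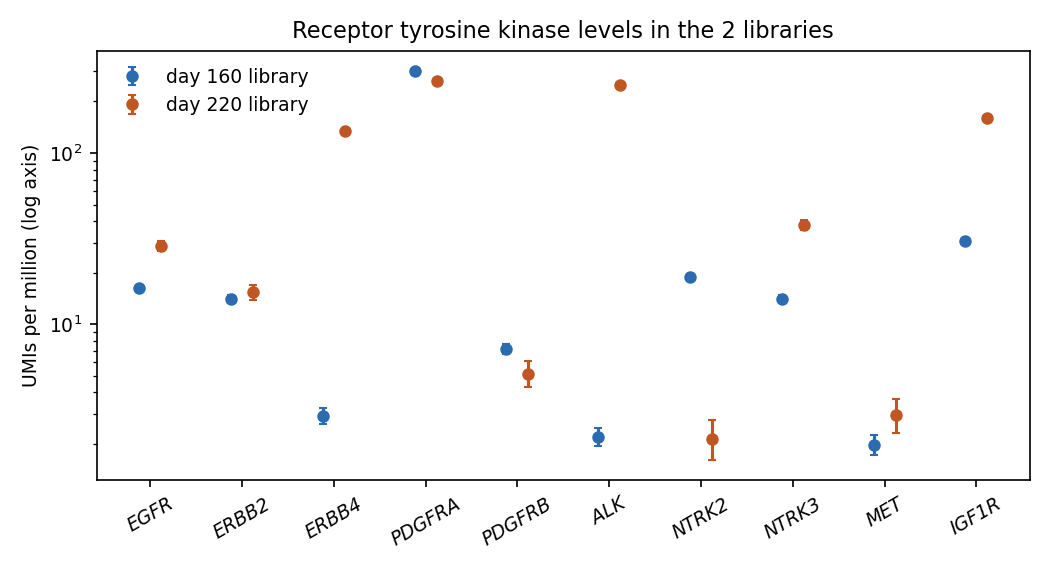
Level of each receptor gene in CPM (log axis) in the day 160 library (blue) and the day 220 library (orange), with exact Poisson 95% intervals of counting error and no replicate. PDGFRA stands at 301 and 264 CPM, while ALK goes from 2.20 to 251 CPM and NTRK2 from 18.8 to 2.13 CPM.

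Of the 10 genes, 8 reached 10 CPM in at least 1 library, and PDGFRB and MET did not. Among these 8, a log2 ratio of day 220 CPM + 1 over day 160 CPM + 1 of at least 2-fold was counted. ERBB4, ALK, NTRK3 and IGF1R were higher (4 of 8, 50%) beside 23.0% of all 10160 genes treated in the same way. NTRK2 was lower (1 of 8) beside 5.05% of all genes. ERBB4 and ALK reached 10 CPM only at day 220 and NTRK2 only at day 160. The filter thus let them in through the library where they were high, so these counts are a description only. The median log2 ratio of the 8 was 1.08, of all 10 genes 0.59, and of all genes tested 0.14.

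Intron length moved with these ratios across the whole transcriptome. Genes with over 300000 annotated intron bases had a median log2 ratio of 2.58, 88.7% of the 529 such genes were at least 2-fold higher, and their share of all UMIs was 1.52% at day 160 and 8.11% at day 220. Genes with 100000 to 300000 intron bases had a median of 1.24, and those with 30000 to 100000 a median of 0.34. Across 10132 genes Spearman's rho between intron bases and log2 ratio was 0.64, with genes not being independent replicates. The receptor genes differ widely here, from 32192 intron bases in ERBB2 to 1150110 in ERBB4.

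Against genes of like intron length, the receptor genes took another order. After each log2 ratio was centred on the running median of 305 genes of neighbouring intron length, ALK stood at 3.40 and ERBB4 at 2.20. NTRK2 stood at -4.96, further below its neighbours in length than its measured ratio of -2.66. IGF1R came to 0.32, from 2.35 as measured. NTRK3 turned from 1.37 to -0.98 and EGFR from 0.78 to -0.66, so both lay above 0 as measured and below genes of their own length. PDGFRA was at -0.61, MET at -0.61, PDGFRB at -0.47 and ERBB2 at 0.04. On this centred scale 2 of the 8 tested genes were at least 2-fold higher beside 10.2% of all genes, 1 was lower beside 7.34%, and the median of the 8 was -0.29. Over all genes the split was 1031 higher and 744 lower after centring, against 2333 higher and 513 lower as measured. The part of intron length in each receptor's ratio was not tested.

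**Figure D2:**
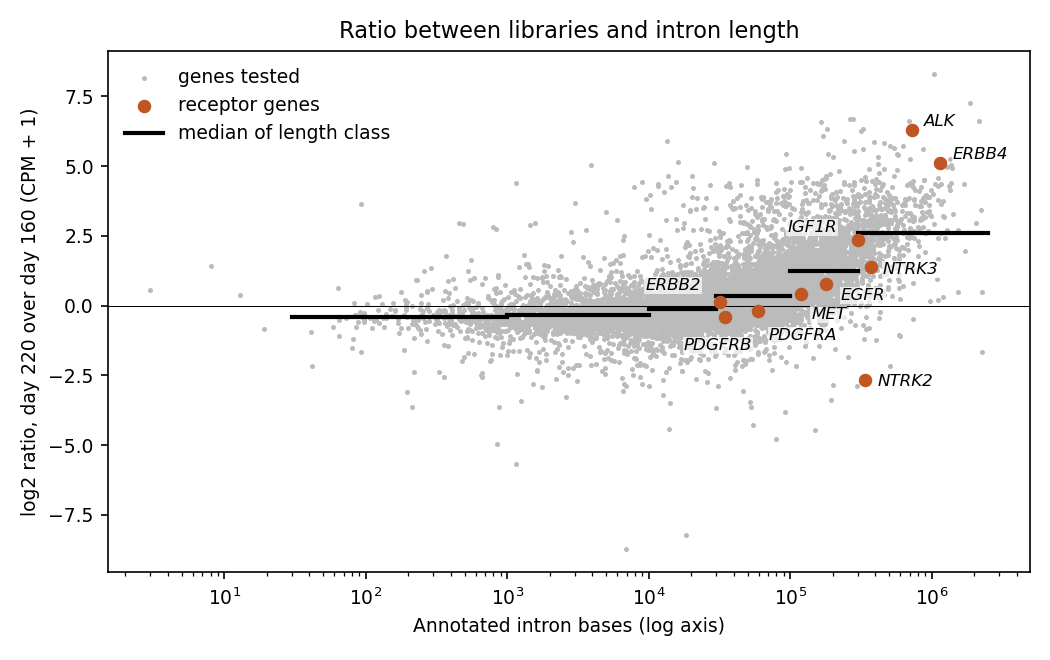
Log2 ratio of day 220 over day 160 (CPM + 1) against annotated intron bases (log axis) for all genes tested (grey) and the 10 receptor genes (orange), with black bars for the median of each length class. ALK and ERBB4 lie above the class median of 2.58 for genes over 300000 bases, IGF1R at 2.35 and NTRK3 at 1.37 lie below it, and NTRK2 lies at -2.66.

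Each library was clustered alone, leaving out the 10 receptor genes and the genes of their pathway lists, and clusters are named here by leading genes. At day 160 the 10 clusters were led by HLA-DPA1, CD74 and SPARCL1 (1761 cells), CALB2 and SCGN (1708), the S-phase genes TYMS and PCLAF (1340), CRABP1 and HOXB6 (1239), HOPX and SERPINA3 (981), the mitotic genes CDC20 and UBE2C (845), GADD45G and OLIG1 (529), RAMP1 and GPC3 (377), SST and POU3F4 (362), and TAGLN and COL1A1 (283). At day 220 they were led by PEG10 and DLX6-AS1 (156 cells), SPARCL1 and EDNRB (124), OLIG1 and DPP6 (76), RIC3 and CHRNA1 (58), COL1A1 and TAGLN (50), TOP2A and MKI67 (33), and BRINP1 and CALB2 (24). Genes with over 300000 intron bases took 1.41% to 1.81% of UMIs in the day 160 clusters and 6.35% to 9.46% in the day 220 clusters of at least 30 cells, so within a library this share varied less than between libraries. In these sums, fewer cells of a kind and less RNA of a gene per cell cannot be told apart for the whole library.

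At day 160, 6 receptor genes had a cluster of at least 30 cells with 10 CPM or more and at least 2 times the level of the library: ERBB4, PDGFRB, ALK, NTRK2, NTRK3 and MET (6 of 10, beside 21.1% of all genes with a cluster at 10 CPM). In the day 220 library these were ERBB4, PDGFRA and MET, 3 of the 8 receptor genes with a cluster at 10 CPM, beside 15.4% of all such genes. EGFR, ERBB2 and IGF1R had no such cluster in either library at the Leiden resolution used. Over the whole library ERBB4, PDGFRB, ALK and MET were under 10 CPM at day 160, as was MET at day 220. They thus entered the count only through clusters where they were high. At a resolution of 1.0 the day 160 count was 8, with EGFR and PDGFRA added, and at 0.3 it was 4, the genes ERBB4, NTRK2, NTRK3 and MET. With doublets kept, PDGFRB and ALK had no such cluster at day 160. With each cell thinned to 5000 UMIs, MET had no such cluster at day 160. The day 220 count was 1, ERBB4, at a Leiden resolution of 0.3. In the same clusters with each cell thinned to 5000 UMIs it was 5, and these were EGFR, PDGFRA, ALK, NTRK2 and NTRK3, without ERBB4 and MET.

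**Figure D3:**
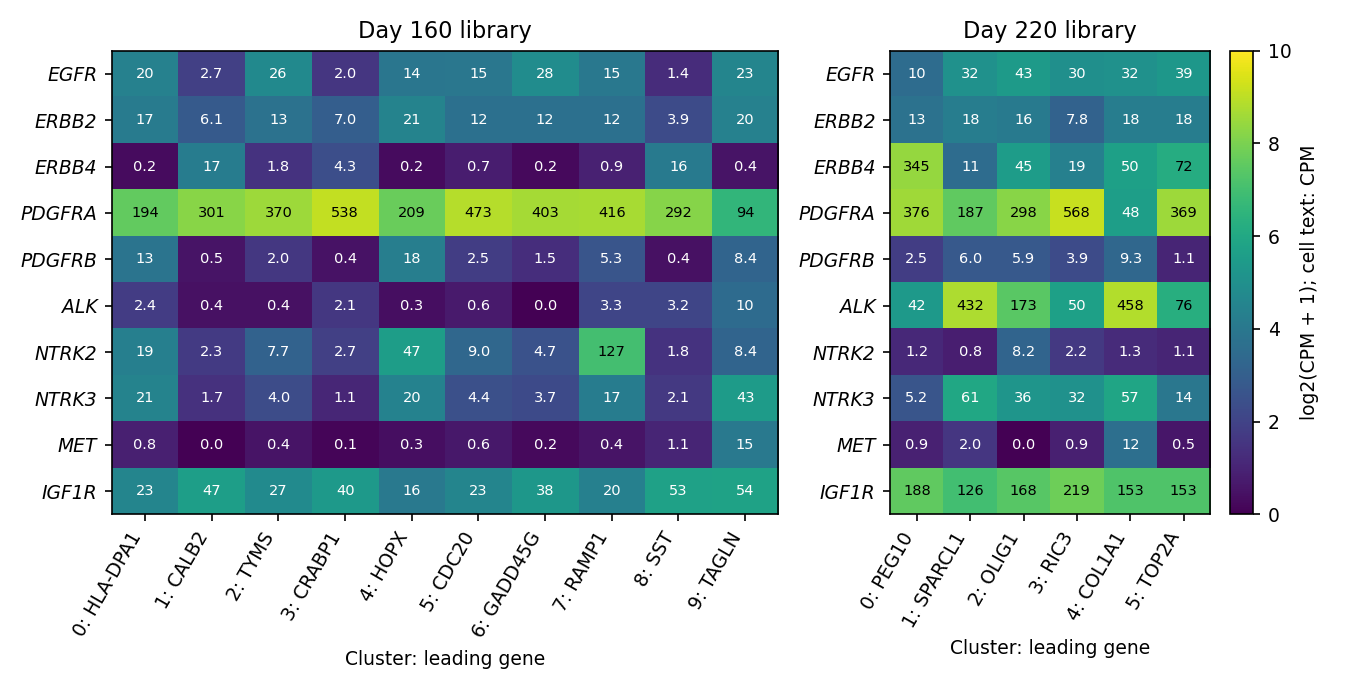
Level of each receptor gene (CPM, colour on a log scale) in every cluster of at least 30 cells, with the day 160 clusters and the day 220 clusters side by side. NTRK2 is highest in the RAMP1 cluster of day 160 at 127 CPM, MET in the TAGLN cluster at 15.4 CPM, and ALK in the COL1A1 and SPARCL1 clusters of day 220 at 458 and 432 CPM.

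EGFR (chr7:55019021-55211628, plus strand, GRCh38) binds EGF, TGFA and HBEGF. It stood at 16.2 CPM (15.5 to 17.0) on 1886 UMIs in the day 160 library, against 28.6 CPM (26.6 to 30.8) on 740 UMIs in the day 220 library. At day 160 it was highest in the GADD45G cluster at 27.9 CPM (23.6 to 32.8), followed by the S-phase cluster at 25.7 CPM and the TAGLN cluster at 22.6 CPM. It was lowest in the CALB2 cluster at 2.72 CPM (1.84 to 3.88), the CRABP1 cluster at 1.96 CPM and the SST cluster at 1.43 CPM from 4 UMIs. The GADD45G cluster was 19.5-fold (7.47 to 72.7) above the SST cluster. Of the 9 neighbours in this order 8 overlapped in their intervals, and the step that did not was between the HOPX cluster at 14.2 CPM and the CALB2 cluster. At day 220 the OLIG1 cluster had 42.7 CPM and the PEG10 cluster 10.5 CPM (8.0 to 13.5), a 4.07-fold difference (2.99 to 5.61), and the other 4 clusters of at least 30 cells lay between 30.2 and 38.6 CPM.

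ERBB2 (chr17:39687914-39730426, plus strand), the partner of the other ERBB receptors that binds no ligand of its own, was the most even of the family. The levels were 14.1 CPM (13.4 to 14.8) on 1634 UMIs and 15.3 CPM (13.9 to 16.9) on 396 UMIs. Its day 160 clusters ran from 21.3 CPM in the HOPX cluster to 3.93 CPM in the SST cluster, and its day 220 clusters of at least 30 cells from 17.8 CPM to 7.75 CPM, with every pair of neighbours overlapping. The MIEN1 gene overlaps ERBB2 on the other strand and had 113 and 79.5 CPM, and whether counting used strand was not stated, so reads at that end of ERBB2 are uncertain.

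ERBB4 (chr2:211375717-212538841, minus strand), a neuregulin receptor, was low at day 160 and concentrated in a few clusters at both days. The library levels were 2.91 CPM (2.61 to 3.24) from 338 UMIs and 134 CPM (129 to 138) from 3455 UMIs. At day 160 the CALB2 cluster had 17.3 CPM (14.95 to 19.96) and held 56.5% of the ERBB4 UMIs, the SST cluster had 16.4 CPM (12.03 to 21.9), and the HLA-DPA1 cluster had 0.22 CPM from 6 UMIs. CALB2, SCGN and SST, which lead the high clusters, are genes of interneurons.

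In the later library the 24 cells of the BRINP1 and CALB2 cluster had 2026 CPM of ERBB4 (1894 to 2165) on 873 UMIs, and ERBB4 was among the 10 leading genes of that cluster although it was left out of the clustering. The PEG10 and DLX6-AS1 cluster had 345 CPM (330 to 361) and 56.1% of the UMIs, 32.2-fold (25.8 to 40.7) above the SPARCL1 cluster at 10.7 CPM. A single cell had 282 ERBB4 UMIs, and the 5 cells with the most ERBB4 held 28.0% of its UMIs. Without the 24 cells the library level was 102 CPM and the ratio to day 160 was 34.9-fold (31.2 to 39.2).

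The PDGF receptors bind PDGF dimers, PDGFRA on glial precursors and PDGFRB chiefly on pericytes and other mural cells. PDGFRA (chr4:54229097-54298247, plus strand) stood at 301 CPM (298 to 304) on 34963 UMIs in the day 160 library and at 264 CPM (258 to 270) on 6824 UMIs in the later one. It had a median of 3 UMIs per cell at day 160 and 8 at day 220. Per kilobase of exon it stood first at day 160 with 30.9 CPM. At day 220 it was second to ALK by that measure, with 27.1 CPM against 34.1 CPM. Per 100 kilobases of gene, introns included, it led at both days, with 435 and 382 CPM. Since PDGFRA led by length at day 160 and its 59419 intron bases are few, the 250 bases before each of its annotated starts are shown, from the RefSeq promoter table of GRCh38.p14. Capitals mark the E-box CAGCTG, a sequence bound by basic helix-loop-helix transcription factors. The first start has chr4:54229043-54229292 with 46.8% GC, and the second has chr4:54233710-54233959 with 64.0% GC.
PDGFRA start 1: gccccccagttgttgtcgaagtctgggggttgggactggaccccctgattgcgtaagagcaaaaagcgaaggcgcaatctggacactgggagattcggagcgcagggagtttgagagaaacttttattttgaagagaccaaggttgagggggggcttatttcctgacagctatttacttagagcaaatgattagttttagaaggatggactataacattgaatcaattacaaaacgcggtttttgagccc
PDGFRA start 2: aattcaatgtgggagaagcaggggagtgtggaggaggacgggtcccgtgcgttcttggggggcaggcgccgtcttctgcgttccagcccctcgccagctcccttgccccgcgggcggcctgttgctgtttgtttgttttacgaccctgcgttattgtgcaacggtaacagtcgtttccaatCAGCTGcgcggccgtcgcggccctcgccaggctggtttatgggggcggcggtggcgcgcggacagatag
The second region held 1 CAGCTG, as did the regions of ALK start 1 and of PDGFRB, which makes 3 of the 16 starts of the receptor genes. CAGCTG reads the same on both strands and occurred in 14.0% of the 35116 starts in the table. The STAT motif TTCNNNGAA, searched because LIF signals through STAT3, was in 0 of the 16 and in 6.57% of all starts. These are matches of letters within 250 bases, and the counts do not say which start a UMI came from.

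PDGFRA was found in every cluster, and the day 160 order was one of clear steps, with 2 of 9 neighbours overlapping. The CRABP1 cluster had 538 CPM (524 to 553), the mitotic cluster 473 CPM (461 to 485), the RAMP1 cluster 416 CPM, the HLA-DPA1 cluster 194 CPM and the TAGLN cluster 94.0 CPM (88.6 to 99.7). The CRABP1 cluster was thus 5.73-fold (5.37 to 6.11) above the TAGLN cluster. At day 220 the RIC3 and CHRNA1 cluster had 568 CPM (538 to 600) and the COL1A1 cluster 47.8 CPM (41.7 to 54.6), an 11.9-fold difference (10.3 to 13.8). The clusters led by contractile and collagen genes, TAGLN, ACTA2 and COL1A1, were lowest for PDGFRA among clusters of at least 30 cells in both libraries.

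PDGFRB (chr5:150113837-150155872, minus strand) was lower and followed other clusters. The 829 UMIs of day 160 made 7.14 CPM (6.66 to 7.64) and the 133 of day 220 made 5.15 CPM (4.31 to 6.10), a level 1.39-fold lower (1.15 to 1.68). At day 160 it was highest in the HOPX cluster at 18.2 CPM (16.1 to 20.6) and the HLA-DPA1 cluster at 13.2 CPM, which together with the TAGLN cluster at 8.45 CPM were the clusters above the library level. At day 220 the highest level was 9.25 CPM, in the COL1A1 cluster. The 4 pericyte markers summed to 46.9 and 32.4 CPM, with NOTCH3 at 26.5 and 21.7 CPM and RGS5 at 1.36 and 3.37 CPM, and their part in PDGFRB was not tested.

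ALK (chr2:29192774-29921566, minus strand) is a receptor for ALKAL1 and ALKAL2, known for fusions and mutations in neuroblastoma and other tumours. At day 160 its 255 UMIs were spread thinly, with 120 of them (47.1%) in the TAGLN cluster at 10.1 CPM (8.41 to 12.1), 3.30 CPM in the RAMP1 cluster and no UMI in the GADD45G cluster, where 3 UMIs would be 0.562 CPM. In the day 220 library the COL1A1 cluster had 458 CPM (439 to 479) and the SPARCL1 cluster 432 CPM (417 to 447), and the intervals of these neighbours overlapped. The OLIG1 cluster had 173 CPM, and the PEG10 cluster 41.6 CPM, 11.0-fold (9.62 to 12.7) below the COL1A1 cluster. So the lowest day 220 cluster of at least 30 cells stood above the highest day 160 cluster.

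At day 220 a single cell had 523 ALK UMIs, while the median cell had 1, and the 5 cells with the most ALK held 16.1% of its UMIs. The antisense genes AC106870.1 and AC106870.2, which lie within ALK, had 20 and 0 UMIs at day 220. ALK has 2 annotated starts in the RefSeq table, and because it had the largest ratio the 250 bases before each are shown, on the minus strand, with CAGCTG in capitals. The first has chr2:29921587-29921836 with 71.6% GC and 24 CpG, beside medians of 58% and 11 over all starts. The second, at chr2:29223824-29224073 with 53.6% GC and 2 CpG, lies within the gene.
ALK start 1: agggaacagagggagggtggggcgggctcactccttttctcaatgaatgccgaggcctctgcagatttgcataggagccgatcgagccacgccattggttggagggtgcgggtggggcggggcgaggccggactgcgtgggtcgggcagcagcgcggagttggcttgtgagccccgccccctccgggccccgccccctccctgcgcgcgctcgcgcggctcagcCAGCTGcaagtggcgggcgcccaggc
ALK start 2: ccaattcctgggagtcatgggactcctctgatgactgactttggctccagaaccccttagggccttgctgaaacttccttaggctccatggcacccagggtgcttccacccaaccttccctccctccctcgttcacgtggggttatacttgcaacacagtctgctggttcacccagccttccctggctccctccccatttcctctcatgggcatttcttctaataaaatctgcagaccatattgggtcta

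NTRK2 and NTRK3 encode TrkB and TrkC, the receptors of BDNF and neurotrophin-3. NTRK2 (chr9:84668551-85027070, plus strand) went from 18.8 CPM (18.0 to 19.6) on 2183 UMIs to 2.13 CPM (1.60 to 2.77) on 55 UMIs. At day 160 the RAMP1 cluster had 127 CPM (117 to 138), 2.71-fold (2.42 to 3.03) above the HOPX cluster at 47.0 CPM (43.5 to 50.7), and the HLA-DPA1 cluster had 19.0 CPM. NTRK2 was among the 10 leading genes of the RAMP1 cluster. The SST cluster had 1.79 CPM from 5 UMIs, 71.2-fold lower (30.3 to 220). No day 220 cluster shared 2 or more of its 10 leading genes with the RAMP1 or the HOPX cluster. Of the later library's clusters, the OLIG1 cluster had 28 of the 55 UMIs and 8.25 CPM (5.48 to 11.9), and no other cluster of at least 30 cells was above 2.15 CPM. Those 28 UMIs came from 6 of its 76 cells. The 5 day 220 cells with the most NTRK2 held 47.3% of its UMIs.

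NTRK3 (chr15:87859751-88256768, minus strand) went from 14.1 CPM (13.4 to 14.8) on 1635 UMIs to 38.0 CPM (35.6 to 40.4) on 981 UMIs. At day 160 the TAGLN cluster had 43.3 CPM (39.7 to 47.3), the HLA-DPA1, HOPX and RAMP1 clusters had 21.0, 20.5 and 17.2 CPM, and the other 6 clusters had at most 4.42 CPM. In the later library the SPARCL1 cluster had 61.0 CPM and the COL1A1 cluster 57.5 CPM, which overlapped, whereas the PEG10 cluster had 5.16 CPM, 11.8-fold (8.12 to 17.8) below the SPARCL1 cluster. Between these the OLIG1 cluster had 35.9 CPM and the RIC3 cluster 32.3 CPM, so the day 220 levels were graded. The CRABP1 and CALB2 clusters of day 160 were lowest, at 1.08 and 1.72 CPM.

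MET (chr7:116672390-116798386, plus strand), the receptor of hepatocyte growth factor, was the lowest of the 10 genes at day 160 in CPM. It had 1.98 CPM (1.73 to 2.25) from 230 UMIs and 2.94 CPM (2.32 to 3.68) from 76 UMIs, 1.49-fold higher (1.13 to 1.93). Most of these UMIs were in the clusters led by TAGLN and COL1A1. The day 160 TAGLN cluster, with 283 of 9425 cells, held 182 UMIs (79.1%) at 15.4 CPM (13.2 to 17.8), 18.6-fold (12.01 to 30.1) above the HLA-DPA1 cluster. The day 220 COL1A1 cluster, with 50 of 521 cells, held 53 UMIs (69.7%) at 11.7 CPM, 5.96-fold (3.31 to 11.4) above the SPARCL1 cluster at 1.96 CPM. These clusters had the deepest cells, at medians of 31861 and 87469.5 UMIs, so their shares of cells understate their shares of all UMIs. At 5000 UMIs per cell, 9 of the 24 day 160 cells with MET were in the TAGLN cluster and 8 in the HLA-DPA1 cluster. At day 220, 2 of 4 such cells were in the COL1A1 cluster and 2 in the SPARCL1 cluster.

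IGF1R (chr15:98648539-98964530, plus strand), the receptor of insulin-like growth factors, was spread most evenly over clusters among the genes that were at least 2-fold higher. The day 160 level was 30.7 CPM (29.7 to 31.8) on 3570 UMIs and the day 220 level 161 CPM (156 to 166) on 4156 UMIs. Its day 160 clusters ran from 54.0 CPM in the TAGLN cluster to 15.7 CPM in the HOPX cluster, 3.45-fold apart (2.95 to 4.04). Its day 220 clusters ran from 219 CPM in the RIC3 cluster to 126 CPM in the SPARCL1 cluster, 1.74-fold apart (1.56 to 1.94).

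For levels between genes, counts were divided by annotated exon length. At day 160 the order in CPM per kilobase of exon was PDGFRA at 30.9, IGF1R at 2.21, ERBB2 at 1.36, EGFR at 1.30, PDGFRB at 1.0, NTRK2 at 0.923, NTRK3 at 0.526, ALK at 0.298, MET at 0.281 and ERBB4 at 0.224. At day 220 it was ALK at 34.1, PDGFRA at 27.1, IGF1R at 11.5, ERBB4 at 10.3, EGFR at 2.29, ERBB2 at 1.49, NTRK3 at 1.42, PDGFRB at 0.721, MET at 0.418 and NTRK2 at 0.105. A 3′ kit counts transcript ends, so a division by exon length can misplace genes with long exons. It also leaves out introns, and genes with long introns stood higher at day 220. Per 100 kilobases of gene, introns included, the day 220 order began with PDGFRA at 382 CPM and IGF1R at 50.9 CPM. ERBB2 at 36.1 CPM and ALK at 34.4 CPM came next, and ERBB4 had 11.5 CPM.

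In all, 4 pairs of clusters from the 2 days shared at least 3 of their 10 leading genes, so levels could be set side by side in cells with like leading genes. The CALB2 cluster of day 160 and the BRINP1 cluster of day 220 shared CALB2, DCX and SCGN, but the latter holds 24 cells, under the minimum of 30, so its ERBB4 values are given only as a description, at 17.3 and 2026 CPM, 117-fold higher (99.9 to 138). The other 3 pairs, chosen after the data were seen, were the HLA-DPA1 cluster with the SPARCL1 cluster, the mitotic cluster with the TOP2A cluster, and the TAGLN cluster with the COL1A1 cluster. The mitotic pair is not fully alike, since the TOP2A cluster was also led by the S-phase gene PCLAF. The separate S-phase cluster of day 160 was not part of that pair. The receptor genes at least 2-fold higher were ERBB4, ALK, NTRK3 and IGF1R in the first pair (4 of 9 tested, beside 23.5% of all genes), these and EGFR in the mitotic pair (5 of 7, beside 26.6%) and ERBB4, ALK and IGF1R in the last pair (3 of 8, beside 19.7%). PDGFRB and NTRK2 were at least 2-fold lower in the first pair (2 of 9, beside 4.10%), and none was in the mitotic pair (0 of 7, beside 3.88%) or the last pair (0 of 8, beside 5.13%), where NTRK2 was under 10 CPM. ERBB4 in each pair, ALK in the first and mitotic pairs, and NTRK3 in the mitotic pair reached 10 CPM only at day 220. PDGFRB and NTRK2 in the first pair did so only at day 160. With cells thinned to 5000 UMIs the higher counts were 4 of 9, 6 of 7 and 5 of 8. ERBB2 then passed 2-fold in the mitotic pair, at a log2 ratio of 1.25 against 0.53 unthinned, and EGFR and NTRK3 did so in the last pair, at 1.29 each against 0.50 and 0.40.

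ALK was 177-fold (139 to 228), 118-fold (58.4 to 279) and 45.2-fold (37.6 to 54.8) higher at day 220 in the 3 pairs. ERBB4 was 49.6-fold (21.8 to 139), 100-fold (51.1 to 223) and 118-fold (49.99 to 368) higher, from 5 to 9 UMIs in the day 160 clusters. NTRK2 was lower by 24.3 times (11.1 to 66.5), 8.40 times (2.27 to 70.2) and 6.33 times (2.81 to 17.7). In these same pairs genes with over 300000 intron bases had median log2 ratios of 2.56, 2.72 and 2.28.

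The genes with the fewest intron bases, ERBB2, PDGFRB and PDGFRA, had ratios of day 220 over day 160 from 0.430 to 1.48 in these pairs. ERBB2 had intervals that included no difference in all 3 pairs, as wide as 0.980 to 2.16 in the mitotic pair. PDGFRA had a ratio of 0.962 (0.907 to 1.02) in the HLA-DPA1 and SPARCL1 pair, and was 1.28-fold lower (1.18 to 1.39) in the mitotic pair and 1.97-fold lower (1.70 to 2.29) in the TAGLN and COL1A1 pair. PDGFRB was 2.20-fold lower (1.62 to 3.06) in the first pair, and its interval included no difference in the other two. EGFR was 1.62-fold (1.39 to 1.89), 2.61-fold (1.96 to 3.44) and 1.44-fold (1.17 to 1.76) higher. The S-phase cluster of day 160, which was in no pair, had 25.7 CPM of EGFR and 370 CPM of PDGFRA. The TOP2A cluster of day 220 had 38.6 and 369 CPM, so the mitotic pair's values for these genes depend on the pairing. NTRK3 was 2.91-fold, 3.27-fold and 1.33-fold higher and IGF1R 5.56-fold, 6.78-fold and 2.83-fold, each smallest in the TAGLN and COL1A1 pair. MET, in the clusters that hold most of its UMIs, had a ratio of 0.759 (0.548 to 1.04).

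**Figure D4:**
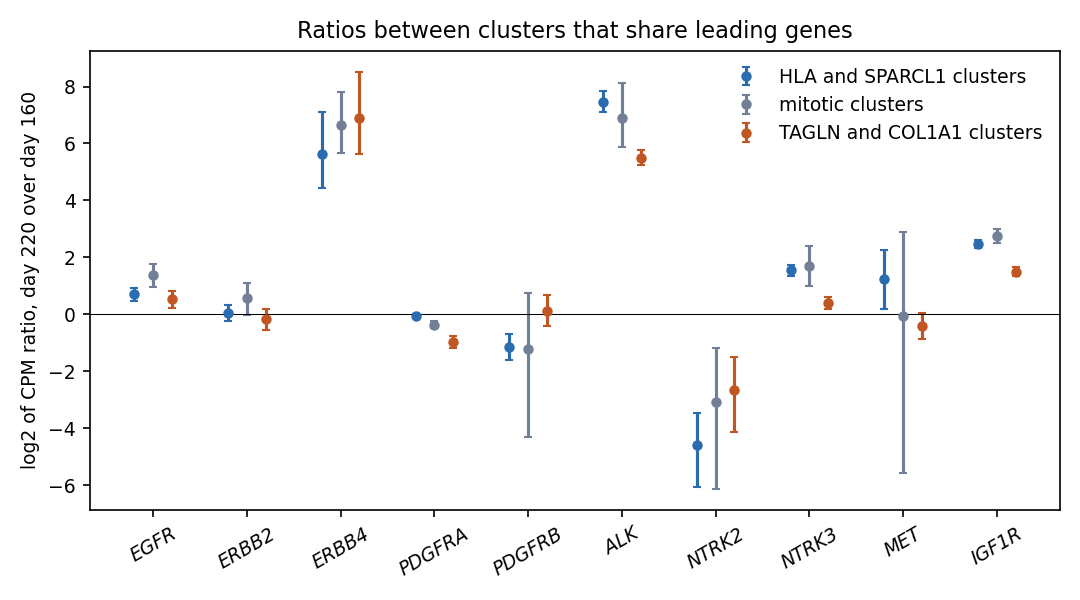
Log2 ratio of CPM at day 220 over day 160 for each receptor gene within 3 pairs of clusters that share leading genes, with exact conditional binomial 95% intervals of counting error. ALK is 45.2-fold to 177-fold and ERBB4 49.6-fold to 118-fold higher, NTRK2 is lower in each pair, and the intervals of ERBB2 include 0 in all 3.

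Shares of cells with a transcript were compared after thinning each cell to 5000 UMIs, which left out 691 day 160 cells and 30 day 220 cells that were shallower. Of 8734 day 160 cells 67.7% (66.7 to 68.6, exact Clopper-Pearson interval) had a PDGFRA UMI, and of 491 day 220 cells 57.0% (52.5 to 61.5), where the unthinned shares were 81.0% and 86.8%. The ALK shares were 0.641% (0.485 to 0.832) and 36.0% (31.8 to 40.5), and 2.11% and 55.9% unthinned. ERBB4 was found in 1.5% (1.26 to 1.78) and 23.2% (19.6 to 27.2), and in 2.72% and 39.0% unthinned. IGF1R was found in 13.9% and 54.8%, against 26.7% and 92.1% unthinned. The same 4 genes led in CPM in the later library, but there ALK stood above IGF1R, while in shares of cells IGF1R stood above ALK. Thinning equalizes depth but leaves the larger share of UMIs from genes with over 300000 intron bases at day 220. ALK, ERBB4 and IGF1R are among such genes.

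The thinned share of NTRK2 was 6.21% (5.71 to 6.73) in the earlier and 1.22% (0.450 to 2.64) in the later library, with 12.02% and 4.41% unthinned. EGFR was found in 6.13% and 11.4%, ERBB2 in 5.83% and 7.54%, NTRK3 in 4.33% and 16.1%, PDGFRB in 2.55% and 1.43% and MET in 0.275% and 0.815%. Unthinned, these 5 genes were found in 14.2%, 14.2%, 10.7%, 6.92% and 1.57% of day 160 cells and in 47.4%, 44.3%, 43.6%, 17.9% and 7.29% of day 220 cells. Free RNA in droplets can give a UMI to any cell, and its amount was not estimated here. Shares in a low cluster are therefore given beside those in high clusters, though such UMIs can also be low expression. NTRK2 was found in 39.1% of the RAMP1 cluster and 0.328% of the SST cluster at day 160, with median depths of 10583 and 6861 UMIs. ALK was found in 73.5% of the COL1A1 cluster, 70.0% of the SPARCL1 cluster and 11.4% of the PEG10 cluster at day 220, with median depths of 87469.5, 63316.5 and 35516.5 UMIs. ERBB4 was found in 71.4% of the 21 deep enough cells of the BRINP1 cluster and 47.7% of the PEG10 cluster, against 4.17% of the SPARCL1 cluster. In the RIC3 cluster, with a median depth of 41456 UMIs, it was found in 0 of 48 thinned cells, and the exact interval reaches 7.40%. Unthinned, 5 of its 58 cells held 45 ERBB4 UMIs at 19.4 CPM (14.1 to 25.9), above the 10.7 CPM of the SPARCL1 cluster. PDGFRA ranged from 77.1% in the RIC3 cluster to 20.4% in the COL1A1 cluster, among clusters of at least 30 cells.

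**Figure D5:**
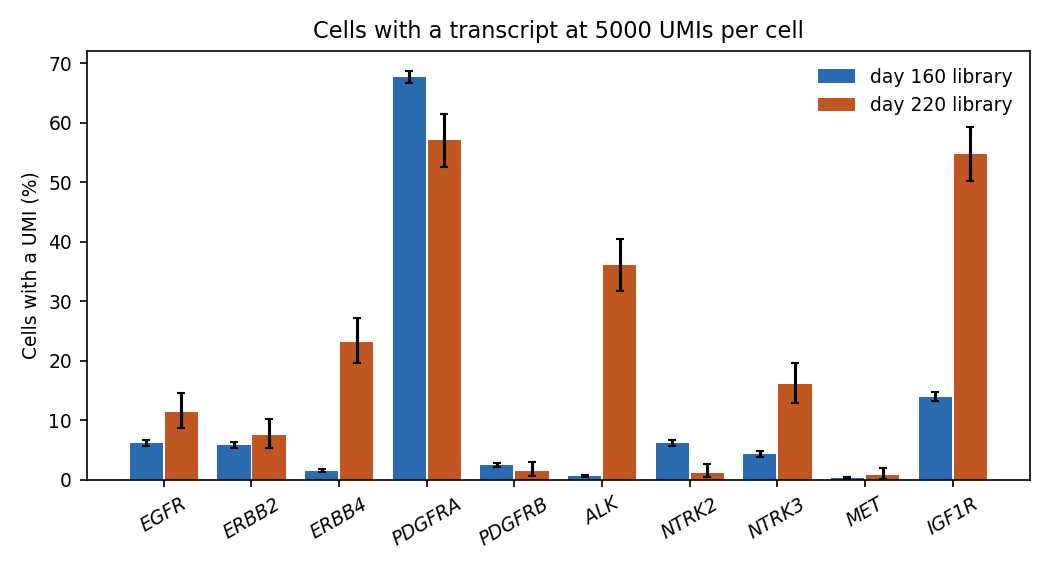
Share of cells with at least 1 UMI of each receptor gene after thinning to 5000 UMIs per cell, in 8734 day 160 cells (blue) and 491 day 220 cells (orange), with exact Clopper-Pearson 95% intervals of counting error. PDGFRA stands at 67.7% and 57.0%, IGF1R at 13.9% and 54.8%, and ALK goes from 0.641% to 36.0%.

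At this depth a day 160 cell had a median of 1 of the 10 receptor genes and a day 220 cell a median of 2. None of the 10 was found in 20.2% of day 160 cells and 4.68% of day 220 cells, and at least 3 were found in 3.89% and 33.2%. Thinning does not remove the larger share of UMIs from genes with over 300000 intron bases at day 220. ALK, ERBB4, IGF1R and NTRK3 are among such genes, and the part of intron length in these counts was not tested. At day 160, 8 of the 10 receptor genes were found in at least 1% of thinned cells, which gives 28 pairs. In 6 pairs the cells with both genes were at least 1.5 times the product of the single shares, and in 16 they were at or under the product. With the product taken within each cluster, 3 pairs were at 1.5 times or more. PDGFRB with NTRK2 was the only such pair from the 6. ERBB4 with NTRK2 and ERBB4 with NTRK3 rested on 4 cells each. Pairs of other genes were not counted, so these counts have no background.

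The largest excess was for PDGFRB with NTRK2, found together in 41 cells, 2.96 times the product, and 1.70 times when the product was taken within each cluster. NTRK2 with NTRK3 were together in 48 cells, 2.05 times the product and 1.21 times within clusters, and EGFR with ERBB2 in 49 cells, 1.57 times and 1.32 times. EGFR and PDGFRA, which are often set against each other in glioma, were together in 362 day 160 cells, beside a product of 361.96 cells, and 1.06 times the product within clusters. At day 220 ALK with NTRK3 were together in 47 cells, 1.65 times the product and 1.02 within clusters. ERBB4 with ALK were together in 21 cells, 0.511 times the product and 0.929 within clusters. Cells are not replicates.

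Across the 10 day 160 clusters, the genes whose log2 levels were most like those of a receptor gene were given for the 6 receptor genes that reached 20 CPM in a cluster, by Pearson's r over 7918 genes as a description. For PDGFRA they included CCDC12 (0.948) and PRCC (0.944). EGFR was closest to CMC1 (0.969), POP5 (0.965) and DIMT1 (0.949), and ERBB2 to TMEM248 (0.986), LHX2 (0.977) and HSPB1 (0.972). NTRK2 was closest to BAALC (0.974), VEPH1 (0.971) and FBXW9 (0.965), and NTRK3 to NACC2 (0.982), BHLHE40 (0.980) and PPIC (0.979). IGF1R was closest to SHB, which encodes an adaptor of tyrosine kinase receptors (0.969), PGM2L1 (0.957) and YWHAG (0.946). The points share a library, and clusters differ in depth.

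Ligands of these receptors were also counted, at 5 CPM or more in at least 1 library, beside 23.6% of all 11984 such genes at least 2-fold higher and 5.03% lower. After centring on intron length these shares were 11.3% and 7.57% of 11936 genes. Of 11 ERBB ligand genes 4 reached that level, and 3 were higher and none lower, with a median log2 ratio of 1.64 against 0.16 over all genes. After centring 1 was higher and 1 lower, at a median of 0.14. HBEGF, the heparin-binding EGF, had 4.83 CPM and 23.1 CPM, with a log2 ratio of 2.05 that was 2.24 after centring on intron length. NRG1, a ligand of ERBB4, had 24.2 and 79.2 CPM, and turned from 1.67 to -1.14 after centring. NRG2 had 2.43 and 9.44 CPM and EGF 5.12 and 9.52 CPM. HBEGF and NRG2 reached 5 CPM only at day 220, so the filter let them in through the library where they were higher. TGFA, AREG, EREG, BTC, EPGN, NRG3 and NRG4 stayed at or under 2.09 CPM in both libraries.

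All 4 PDGF ligand genes were measured, 3 were at least 2-fold higher and none lower, beside 23.6% and 5.03% of all genes. Their median was 1.69. Centred on intron length, 1 of the 4 was higher and none lower, beside 11.3% and 7.57% of all genes, and the median was 0.67. PDGFB had 3.68 and 31.0 CPM, a log2 ratio of 2.77 that was 2.89 after centring, and the longer PDGFC had 19.9 and 79.9 CPM, with 1.96 and 0.51. PDGFD had 23.6 and 65.1 CPM, at 1.43 and -0.25, and PDGFA had 4.57 and 8.17 CPM. PDGFA and PDGFB reached 5 CPM only at day 220, the library where they were higher. Of the neurotrophin genes BDNF, the ligand of NTRK2, had 0.91 CPM and 9.41 CPM, so ligand and receptor differed in opposite directions between the libraries, while NTF3 and NTF4 were at or under 0.12 CPM. Several of these ligands were highest in the COL1A1 cluster of day 220, where HBEGF had 100 CPM, PDGFB 85.9 CPM and BDNF 38.6 CPM.

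Of 8 ligand genes of ALK, MET and IGF1R, 2 reached 5 CPM. PTN, which encodes pleiotrophin, had 1363 and 1315 CPM, and MDK, which encodes midkine, had 111 and 31.7 CPM, a log2 ratio of -1.77. After centring PTN stood at -1.04 and MDK at -1.32. ALKAL2 had 0.34 and 2.75 CPM, ALKAL1 had 3 and 0 UMIs, HGF had 1.64 and 2.63 CPM and IGF1 0.13 and 0.50 CPM, and IGF2 and INS had no UMI. Of 7 IGF-binding protein genes 4 were measured, 1 higher and 1 lower, beside 23.6% and 5.03% of all genes. IGFBP2 was the most abundant at 919 and 1273 CPM, IGFBP5 had 278 and 639 CPM, IGFBP3 had 5.93 and 11.7 CPM and IGFBP7 had 7.88 and 1.32 CPM. The IGFBP3 UMIs came from 84 of 9425 cells at day 160 and 7 of 521 at day 220. IGFBP7 reached 5 CPM only at day 160. After centring 2 of the 4 measured genes, IGFBP3 and IGFBP5, were higher and 1 lower, beside 11.3% and 7.57% of all genes.

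Of 12 related receptor genes outside the 10, 4 reached 5 CPM, and 2 of these were at least 2-fold higher, beside 23.6% of all genes. The 2 were ERBB3, the neuregulin receptor, at 1.02 and 6.39 CPM and IGF2R, a scavenger of IGF2, at 32.5 and 125 CPM. ERBB3 reached 5 CPM only at day 220, the library where it was higher. The insulin receptor gene INSR had 18.8 and 30.6 CPM and AXL 31.0 and 39.8 CPM. ERBB3 alone of these 4 was higher after centring, at 1.98, beside 11.3% of all genes, and the median was 0.50. NGFR, LTK, MST1R, KIT, CSF1R, FLT3 and KDR were at or under 1.28 CPM.

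All 17 genes of a list of adaptors, phosphatases and other signal proteins were measured. Of these, 7 were at least 2-fold higher and none lower, beside 23.6% and 5.03% of all genes, and the median was 0.75. After centring 2 of 17 were higher, beside 11.3% of all genes, none was lower, and the median was 0.48. GAB2, a docking protein, had 6.30 and 116 CPM, at 4.0 and 2.59 after centring. SHC3 had 7.63 and 38.9 CPM, SOS1 24.9 and 97.4 CPM and FRS2 21.6 and 69.5 CPM. Their log2 ratios after centring were 0.81, 0.78 and 0.83, under 2-fold. Among 14 negative regulators 8 were higher and 1 lower, beside 23.6% and 5.03% of all genes, and the median was 1.13. Centring left 2 of 14 higher and 1 lower, beside 11.3% and 7.57% of all genes, at a median of 0.45. PTPRJ, a phosphatase that acts on EGFR and PDGF receptors, had 7.21 and 205 CPM, at 4.65 and 3.21 after centring. CBLB, a ubiquitin ligase of receptors, had 7.43 and 44.3 CPM, and PTPRZ1, a phosphatase of glia that binds pleiotrophin, had 253 and 962 CPM. After centring CBLB stood at 1.02 and PTPRZ1 at 0.48. SOCS2, a feedback inhibitor of cytokine signalling, was the one that was lower, at 64.4 and 7.86 CPM.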

How the data were processed

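RNA of single cells was counted with a 10x Genomics Chromium Next GEM 3′ kit, per the labels' protocols. For each barcode and gene the authors deposited a raw UMI count. The header of the day 160 counts names Cell Ranger 7.0.1, and the version in the day 220 header was not read. The tools Seurat 4 and Cell Ranger 7 and the build hg38 come from the submitters' processing notes. The treatment of intron reads and of strand was not given in the sources used here. Libraries were grouped by the time label. Nothing labels separate cultures within a library, so no p-value was computed.

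Barcodes with 1000 or more genes and at most 15% mitochondrially encoded UMIs were kept, 9972 of 13018 at day 160 and 524 of 676 at day 220. Scrublet, run in scanpy 1.11.5 at an expected rate of 0.06, marked 547 and 3 of these as doublets, which were left out. Counts were summed to CPM, and 116115986 and 25833964 UMIs were behind the levels, so 3 UMIs stood for 0.0258 and 0.116 CPM. CPM has exact Poisson, ratios exact conditional binomial and shares exact Clopper-Pearson intervals. Ratios given as log2 use a pseudocount of 1 CPM and understate low genes. Leiden clustering used 2000 variable genes, 30 principal components, 15 neighbours and resolution 0.5, without 87 receptor and pathway genes. Gene models came from GENCODE 29. The scripts were tested on simulated data.

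The receptor genes, lists and rules were chosen with earlier results of these data known. All 10 receptor genes are named, with up to 4 genes of each list by absolute log2 ratio, every listed ligand and related receptor, and the 3 genes most like each receptor across clusters, apart from a few that are not reported here.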

Additional observations from a re-analysis of the deposited data

How the results depend on the processing

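No paired analysis was possible because each day has 1 library. Counts of receptor genes at least 2-fold higher were 4, and 2 after centring on intron length. The count of lower receptor genes was 1, and 0 among genes of at least 50 CPM. Over all genes 2333 were higher, against 1031 after centring, 4065 with no expression filter and 1014 at 50 CPM, and 513 were lower, against 253 with a pseudocount of 10 CPM and 215 at 50 CPM. NTRK3 reversed to -0.98 after centring, and the cause was not tested. The day 160 count of receptor genes with a high cluster went from 6 to 1 with a floor of 50 CPM, and was 4 and 8 at Leiden resolutions of 0.3 and 1.0. The day 220 count went from 3 to 1 at a Leiden resolution of 0.3 and to 5 with cells thinned to 5000 UMIs. Day 160 pairs at 1.5 times the product went from 6 of 28 to 22 of 45 without thinning and 6 of 45 at 10000 UMIs, and the cause was not tested. Within the cluster pairs, thinning to 5000 UMIs, an alternative chosen after seeing the data, moved 12 of 30 ratios past their counting interval. ERBB2 (-0.17 to 0.28) and MET (-0.37 to 0.23) changed sign in the TAGLN and COL1A1 pair, where neither had differed by 2-fold. Over the alternatives the log2 ratio ran from 3.40 to 6.77 for ALK, 2.20 to 5.84 for ERBB4, 0.32 to 2.51 for IGF1R and -4.96 to -1.25 for NTRK2, so these 4 kept their direction. EGFR ran from -0.66 to 0.98, ERBB2 from -0.03 to 0.35, PDGFRB from -0.77 to 0.01 and MET from -0.61 to 0.74, and PDGFRA from -0.61 to -0.18. With 55 NTRK2 and 76 MET UMIs at day 220, levels in single clusters there are poorly resolved.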
